A study of Homo sapiens with 12 samples.

Results

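The transcriptomes of Fuji, SYO-1, Aska-SS and Yamato-SS, 4 cell lines of synovial sarcoma (SS), were compared between 24 h at 3 µM ZSTK474 and 24 h at 0 µM, at which the cells received vehicle. SS is a malignant tumour of soft tissue whose driver is the SS18-SSX fusion protein, and ZSTK474 blocks all isoforms of class I phosphoinositide 3-kinase (PI3K). The comparison took the 4 arrays labelled 3 µM and the 4 labelled 0 µM, 8 of the 12 arrays of the series, the other 4 having received 0.3 µM, and described 12132 genes. Total RNA of whole cultures was measured on Affymetrix U133 Plus 2.0 arrays, with 1 array per line and dose. The 4 lines therefore served as the replicates, each line being compared with itself. The spread between repeated cultures of a line was not measured, so lines, not cultures, give the spread behind the p-values. That spread was estimated over all 12 arrays, those at 0.3 µM included. A standard error given below is therefore not that of the 4 changes of a gene alone.

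PI3K makes the membrane lipid PIP3, which recruits and activates the kinase Akt. Akt keeps the FOXO transcription factors in the cytoplasm and, through the kinase mTORC1, promotes ribosome production, translation and the synthesis of lipids and nucleotides. When PI3K is blocked, FOXO factors enter the nucleus and growth and entry into S phase slow down.

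Of 17 genes used as markers of SS, 13 were bright enough to be tested, among them *TLE1*, a corepressor used in the diagnosis of SS. Its signals were 20111, 15589.5, 7260.2 and 13089 at 0 µM and 21453, 17817, 7820.4 and 22488 at 3 µM. The lines stand in the order Aska-SS, then SYO-1, then Yamato-SS, then Fuji. At an adjusted p under 0.05 *TLE1* rose (log2 change 0.29), as did *SALL2*, *PRAME*, *CD99*, *TWIST1*, *NCAM1*, *PDGFRA* (1.22) and *FGFR2*. The tested SS markers *BCL2*, *FZD10*, *CCND1*, *EPHB3* and *KRT7* did not pass. *TWIST1* was dim in Fuji, with a signal of 31.9 at 0 µM. Of the markers of other cell types, 1 of 6 leukocyte, 1 of 6 endothelial and 0 of 5 skeletal muscle genes were brighter than the median probe set, the level asked for, and neither *CD79A* (log2 change -0.24, adjusted p = 0.483) nor *PECAM1* (-0.22, adjusted p = 0.481) passed the test. The median deposited signal of an array was 60.1 to 70.6 at 0 µM and 71 to 85.3 at 3 µM before normalization. For beta actin the log2 ratio of the 3′ to the 5′ control probe set, which grows as RNA degrades, was higher at 3 µM in each line and most so in Fuji, where it went from 0.165 to 0.753, against 0.0359 to 0.161 at 0 µM and 0.245 to 0.282 at 3 µM in the other lines. The same ratio for GAPDH moved less, from 0.0402 to 0.072 in Fuji, and was lower at 3 µM in Aska-SS (-0.000409 to -0.127), with values of -0.094 to 0.0402 at 0 µM and -0.127 to 0.072 at 3 µM over the 4 lines.

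At 3 µM ZSTK474 nearly as many genes fell as rose with the processing used here, and most moved by less than a doubling. Of 12132 genes, 2743 rose (22.6%) and 2561 fell (21.1%), 43.7% in all, at an adjusted p under 0.05 (limma, paired by line, Benjamini-Hochberg adjustment). Of these, 2528 rises (20.8% of the genes tested) and 2343 falls (19.3%) went the same way in 4 of 4 lines. Only 430 rises (3.54%) and 443 falls (3.65%) reached a log2 change of 1, that is a doubling or halving. A log2 change of 2 was reached by 27 rises (0.223%) and 25 falls (0.206%). Quantile normalization gives all arrays the same distribution, so the balance of rises and falls is partly set by the processing. Without it 3157 genes rose and 2372 fell, and with probe sets averaged 2334 rose and 2685 fell. With the 8 arrays at 0 and 3 µM alone 2116 rose and 1987 fell.

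The response was widest in Fuji. There 1200 genes were higher by 1 log2 unit or more and 1155 lower, against 718 and 637 in Yamato-SS, 578 and 758 in Aska-SS and 520 and 423 in SYO-1. The median size of a gene's change was 0.48 in Fuji, 0.38 in Aska-SS, 0.37 in Yamato-SS and 0.34 in SYO-1, and 2601 of the 5304 genes that passed had their largest change in Fuji. These are values of single pairs of arrays, so a difference between lines has no replicate check, and the part of the beta actin ratio in it was not tested. Without Fuji 2231 genes rose and 2120 fell. The changes of the same genes correlated between lines with Pearson's r of 0.49 (SYO-1 and Yamato-SS) to 0.63 (Aska-SS and Fuji) across 12132 genes, which are not independent and share each line's pair of arrays. A change of 1 log2 unit or more in 4 of 4 lines was found for 95 genes that rose (0.783%) and 99 that fell (0.816%), whereas 1248 genes were up by that much in exactly 1 line and 1279 down in exactly 1.

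The 25 rises that were largest in the line where each gene moved least were of mixed function. Their fold changes ran from 3.00 to 17.4, all passed the test in each fit that kept the pairing by line and tested them, and in 17 of the 25 the 4 signals at 3 µM lay above the 4 at 0 µM, against 5.3% of all genes. By what their products do, 3 were long noncoding RNAs, 2 histones, 2 regulators of transcription, 2 proteins of membrane lipids, 2 of the centrosome or cilium and 2 of actin and endocytosis, 1 was a proapoptotic gene and 11 had other or poorly known roles. The rule ranked genes by the smallest of the 4 changes. The lack of overlap and the sizes below therefore describe the choice and are not support for it. *PCMTD1*, with 1.39 in its weakest line, was the last inside the rule and *OSER1-DT* the first outside.

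**Figure D1:**
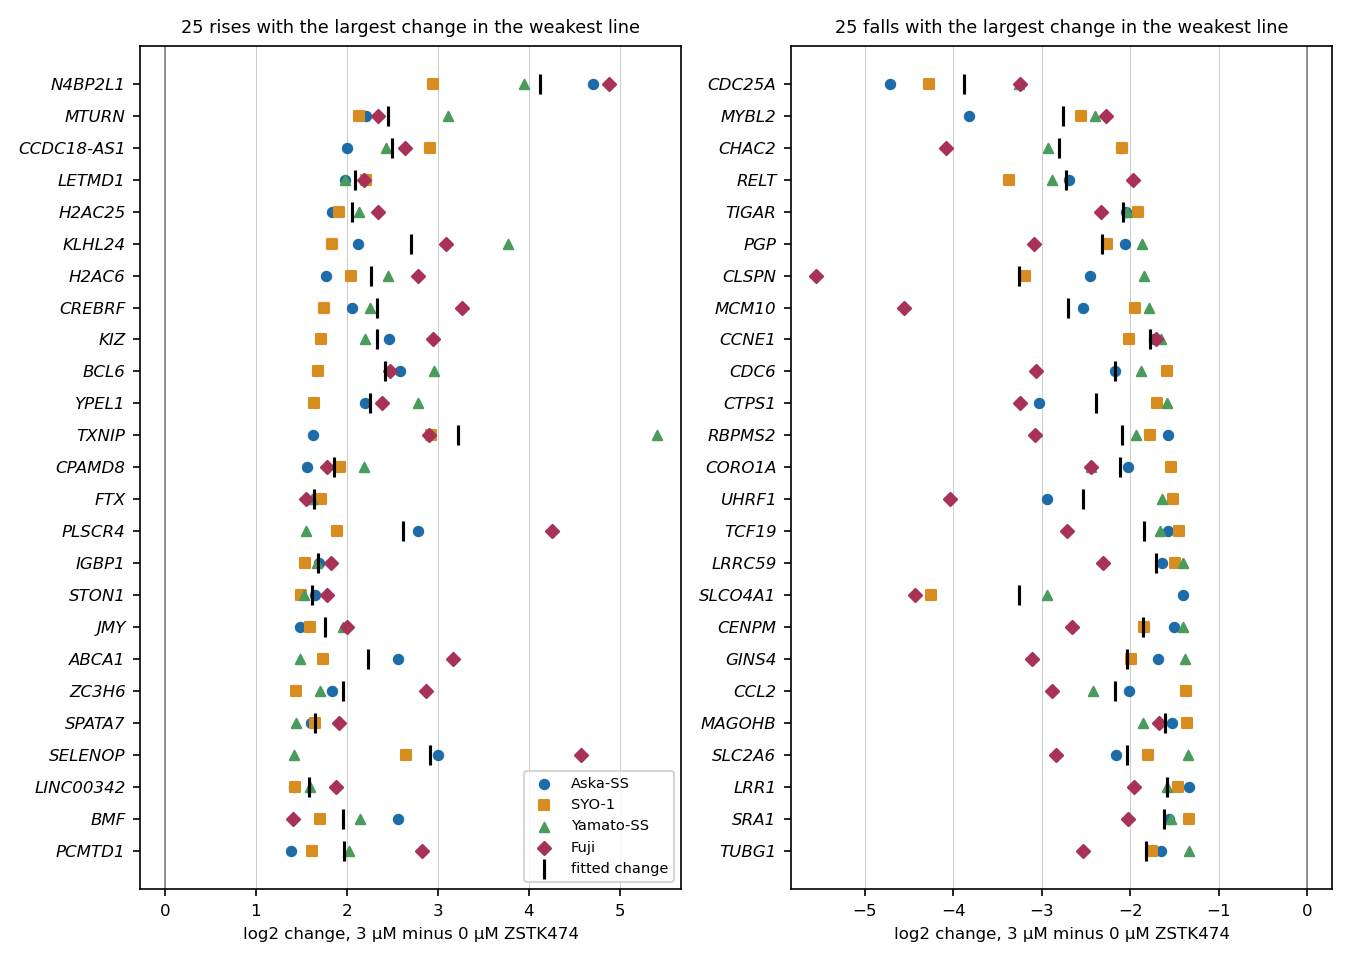
Log2 change between 0 and 3 µM ZSTK474 in each cell line (coloured points) for the 25 rises (left) and 25 falls (right) with the largest change in the line that moved least, with a black bar at the fitted change. *N4BP2L1* and *CDC25A* lead each side, *LETMD1*, *FTX*, *IGBP1*, *STON1* and *TIGAR* have the 4 lines close together, and *TXNIP*, *PLSCR4*, *SELENOP*, *CLSPN*, *MCM10* and *SLCO4A1* have them far apart.

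The signal of *N4BP2L1* was 46.7, 89.5, 12.1 and 93.7 at 0 µM and 1223, 691, 186 and 2756 at 3 µM, with the lines in the order given for *TLE1*, which is kept for all signals. Each line was higher at 3 µM than any line at 0 µM, and the log2 change was 4.12 (standard error 0.29, n = 4 lines). The Yamato-SS value at 0 µM sat at the floor of 12.1, the level to which the dimmest 20% of signals were raised, so its change of 3.94 is a lower bound.

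*LETMD1*, a protein of the mitochondrial membrane, had signals of 1011, 1261, 1037 and 900 at 0 µM and 3988, 5835, 4085 and 4102 at 3 µM. Its log2 change was 2.09 (standard error 0.15, adjusted p = 6.47e-06), with line values of 1.98 to 2.21, one of the narrowest spreads in the set, and the groups did not overlap. *IGBP1*, which binds the catalytic subunit of protein phosphatase 2A, gave 1385, 909.8, 883 and 1026 at 0 µM and 4483, 2648, 2817 and 3655 at 3 µM, again with no overlap (log2 change 1.69, standard error 0.16). *FTX*, a long noncoding RNA, gave 808, 507, 520 and 518 at 0 µM and 2586, 1665, 1594 and 1519 at 3 µM (log2 change 1.64, standard error 0.15), and *STON1*, an endocytic adaptor, rose by 1.61 (standard error 0.16).

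Both histone genes of the set encode replication-type H2A. The signals of *H2AC6* were 763, 478, 498 and 991 at 0 µM and 2600, 1982, 2734 and 6844 at 3 µM, and those of *H2AC25* were 1080.2, 1773, 409 and 689 at 0 µM and 3876, 6698, 1792 and 3504 at 3 µM. For both genes the groups were separate, with log2 changes of 2.27 (standard error 0.15) and 2.06 (standard error 0.12). Of the 2 probe sets of *H2AC25* above the filter only 1 passed, and the other changed by 0.44. Histone gene copies are nearly identical in sequence, so a probe set may read several of them.

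Among regulators, *BCL6*, a transcriptional repressor, had signals of 384, 551, 305 and 644 at 0 µM and 2297, 1766, 2366 and 3588 at 3 µM, with no overlap. *CREBRF*, a leucine zipper protein that acts on the factor CREB3, had 382, 215, 82.4 and 214 at 0 µM and 1596, 722, 393 and 2064 at 3 µM, with each line higher by 1.75 to 3.27 on the log2 scale. *KLHL24*, a BTB-kelch adaptor of cullin 3 ubiquitin ligases, had 712, 582, 184 and 614 at 0 µM and 3095, 2081, 2516 and 5224 at 3 µM, and neither gene overlapped between the groups. *KLHL24* and *CREBRF* each have 5 probe sets above the filter, and in both genes 5 of 5 rose and passed.

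In the membrane and cytoskeleton group, *ABCA1*, the transporter that exports cholesterol to apolipoprotein A-I, had signals of 176, 106, 26.4 and 58 at 0 µM and 1037, 351, 73.8 and 519 at 3 µM, from dim in Yamato-SS to bright in Aska-SS, and it rose in each line by 1.48 to 3.16 although the groups overlapped. *PLSCR4*, a phospholipid scramblase, had a log2 change of 2.62 (standard error 0.39), largest in Fuji, at 4.25, and smallest in Yamato-SS, at 1.55. *JMY*, an actin nucleator and p53 cofactor, had 1470, 642, 332 and 1026 at 0 µM and 4109.7, 1934, 1295 and 4122 at 3 µM, and its line values of 1.48 to 2.01 lay close together, with overlapping groups. *KIZ*, a protein of the centrosome, rose by 2.33 (standard error 0.18) and *SPATA7*, a protein of the photoreceptor cilium, by 1.66 (standard error 0.13). *BMF*, a BH3-only protein, had 26, 33.7, 21.6 and 104 at 0 µM and 154, 109.6, 95.6 and 277 at 3 µM (log2 change 1.95, standard error 0.33), and its groups overlapped because Fuji was already at 104 at 0 µM.

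The 25 falls chosen by the same rule were led by genes of DNA replication, chromatin and cell division, 12 of the 25, followed by 4 enzymes of metabolism, 2 membrane transporters and 7 genes with other roles. Their fold changes ran from 3.01 to 14.7, and in 21 of the 25 the signals at 3 µM lay below those at 0 µM without overlap, against 6.03% of all genes. Since the rule ranked genes by their smallest change, these sizes and the lack of overlap describe the choice and are not support for it. *TUBG1*, with -1.34 in its weakest line, was the last inside the rule and *WDR76* the first outside. In bulk RNA, fewer cells in a phase of the cycle and less RNA per cell cannot be told apart.

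*CDC25A*, the phosphatase that activates CDK2 at entry into S phase, had signals of 521, 391, 1209 and 519 at 0 µM and 19.8, 20.1, 127 and 54.6 at 3 µM. Its fall was over 3 log2 units in each line. *CCNE1*, cyclin E1, the partner of CDK2, had 763, 668, 989.8 and 1151 at 0 µM and 229, 166, 313 and 351 at 3 µM, and its 4 changes of -2.01 to -1.66 were the closest together among the replication genes named. *MYBL2*, the B-Myb transcription factor of the G1/S and G2/M programs, had 1003, 1702, 2805 and 728 at 0 µM and 70.6, 289.8, 531 and 150.2 at 3 µM (log2 change -2.77, standard error 0.25).

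Several factors that load or fire the replicative helicase fell by different amounts in different lines. *MCM10* had 1209, 2357, 2265 and 1579 at 0 µM and 208, 613, 655 and 67 at 3 µM, and its change in Fuji, -4.56, was far from those of the other lines, -2.54 to -1.79. *CDC6*, which loads the MCM complex on origins, changed by -3.06 to -1.59, *GINS4*, a subunit of the active helicase, by -3.11 to -1.38, and *CLSPN*, claspin, a checkpoint adaptor at the fork, by -5.56 to -1.85. In all 3 the largest fall was in Fuji, where *CLSPN* reached the floor at 3 µM. *UHRF1*, which recruits the maintenance DNA methyltransferase to replicated DNA, had 3456, 6469.9, 7179 and 5251 at 0 µM and 451, 2258, 2301 and 319 at 3 µM, with larger falls in Aska-SS and Fuji than in SYO-1 and Yamato-SS. *CENPM*, a protein of the centromere, fell by 1.85 (standard error 0.24), *TUBG1*, gamma-tubulin 1 of the centrosome, by 1.82 (standard error 0.17), *TCF19*, a growth-linked nuclear protein, by 1.85 (standard error 0.25) and *LRR1*, a cullin 2 adaptor that acts in replisome disassembly, by 1.59 (standard error 0.13).

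The 4 metabolic enzymes among the falls ranged from a narrow to a wide spread between lines. *TIGAR*, a fructose bisphosphatase, had signals of 2993, 1644, 1954 and 2628 at 0 µM and 723, 436, 475 and 522 at 3 µM, with a log2 change of -2.08 (standard error 0.10, adjusted p = 1.54e-06) and line values of -2.33 to -1.92. *PGP*, phosphoglycolate phosphatase, had 1461, 1645, 1362 and 2543 at 0 µM and 349, 341, 374 and 298 at 3 µM. At 3 µM the 4 lines were within 298 to 374 for *PGP*, closer together than at 0 µM. *CTPS1*, the CTP synthase of pyrimidine nucleotide production, had 1473, 3103, 3822 and 2309 at 0 µM and 179.6, 957, 1272 and 243 at 3 µM (log2 change -2.39, standard error 0.23), with line values of -3.25 to -1.59. *CHAC2*, which degrades glutathione, fell by 2.81 (standard error 0.27), and most in Fuji, where the change was -4.09. For these 4 enzymes the groups did not overlap.

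Outside growth and metabolism, *CCL2*, the chemokine that attracts monocytes, differed widely in level between lines, with signals of 49, 3759.5, 64.7 and 549 at 0 µM and 12.1, 1453, 12.1 and 74.2 at 3 µM. It fell in 4 of 4 lines although the groups overlapped, and the Aska-SS and Yamato-SS values at 3 µM were at the floor, so their changes are lower bounds in size. *RELT*, a receptor of the tumor necrosis factor family, had 148, 278, 346 and 254 at 0 µM and 22.9, 26.8, 46.9 and 64.6 at 3 µM, without overlap. *LRRC59*, a ribosome-binding protein of the endoplasmic reticulum (ER), had 5476, 6862, 7026 and 5665 at 0 µM and 1751, 2434, 2644 and 1139.8 at 3 µM, also without overlap. *RBPMS2*, an RNA-binding protein, fell by 2.09 (standard error 0.23), *CORO1A*, an actin-binding coronin, by 2.12 (standard error 0.18), *MAGOHB*, of the exon junction complex, by 1.61 (standard error 0.14) and *SLC2A6*, of the glucose transporter family, by 2.04 (standard error 0.25).

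**Figure D2:**
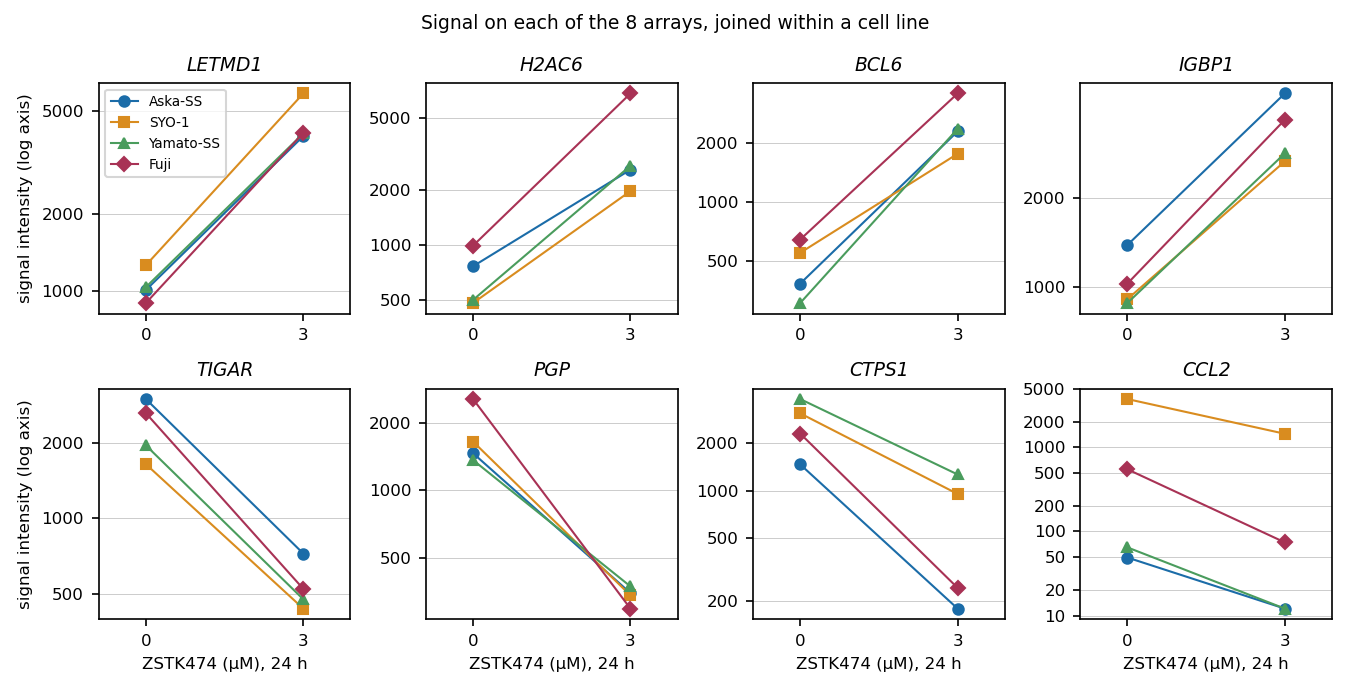
Normalized signal (log axis, arbitrary intensity units) of 4 genes that rose (top) and 4 that fell (bottom) at 0 and 3 µM ZSTK474, 1 array per point, with the arrays of a line joined. For *LETMD1*, *H2AC6*, *BCL6*, *IGBP1*, *TIGAR*, *PGP* and *CTPS1* the points at 3 µM do not overlap those at 0 µM, and for *CCL2* they do, since SYO-1 stays at 1453 while Aska-SS and Yamato-SS are at the floor of 12.1.

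The promoters of the named genes were read for the letters that FOXO and E2F factors are known to bind. RefSeq windows (GRCh38.p14) of 250 bases before to 50 after the start were matched for 9896 of the 12132 genes (81.6%), among them 21 of the 25 named rises and 21 of the 25 named falls, taking the first window listed for a gene and both strands. The FOXO letters GTAAACA stood in 4 of 21 named rises (19.1%), *MTURN*, *TXNIP*, *JMY* and *SELENOP*, in 1 of 21 named falls (4.76%), in 3.64% of all rises, 1.56% of all falls and 2.19% of all promoters. The E2F letters GGCGGGAA stood in 0 of 21 named rises, in 3 of 21 named falls (14.3%), *CLSPN*, *UHRF1* and *LRR1*, in 4.04% of all rises, 7.32% of all falls and 5.12% of all promoters. CCAAT, the NF-Y letters, stood in 34.0% of all rises, 44.2% of all falls and 36.9% of all promoters, and the ETS letters CCGGAAG in 18.7%, 24.4% and 19.5%. The E-box CACGTG was at 11.5% of all rises and 11.2% of all falls, near the 10.6% of all promoters. The TTTGAA letters of the cell cycle element stood in 9.77%, 11.2% and 9.62%, GCGCATGCG of NRF1 in 4.13%, 5.29% and 3.78%, and TGATGNAA of ATF4 in 1.24%, 1.84% and 1.66%, in the same order. Of named rises and named falls, 42.9% and 66.7% held the NF-Y letters and 9.52% and 0% the ETS letters. The E-box stood in 14.3% and 4.76% and the cell cycle element in 4.76% and 14.3%. NRF1 letters stood in 4.76% of both and ATF4 letters in 4.76% and 0%. The median GC content of the windows was 62.7% in named rises, 68.3% in named falls and 65.7% in all promoters. Its part in these shares was not tested. A match is a run of letters in a window and was not measured as binding.
The windows of the 4 rises with the FOXO letters and of 2 of the falls with the E2F letters are shown because they carry these matches, from 250 bases before the start to 30 after it, 280 bases each. Capitals mark GTAAACA or its reverse complement in the first 4, the E-box in *JMY*, and GGCGGGAA or its reverse complement in the last pair, and the capital stretches of different motifs do not overlap.
*MTURN* (chr7:30134736-30135015, plus strand): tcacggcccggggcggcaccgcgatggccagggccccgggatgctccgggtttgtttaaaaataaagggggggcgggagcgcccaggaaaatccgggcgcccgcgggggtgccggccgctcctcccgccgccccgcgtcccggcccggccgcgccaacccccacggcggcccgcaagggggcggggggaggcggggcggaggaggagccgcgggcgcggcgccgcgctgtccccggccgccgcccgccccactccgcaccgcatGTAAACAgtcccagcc
*TXNIP* (chr1:145996550-145996829, minus strand): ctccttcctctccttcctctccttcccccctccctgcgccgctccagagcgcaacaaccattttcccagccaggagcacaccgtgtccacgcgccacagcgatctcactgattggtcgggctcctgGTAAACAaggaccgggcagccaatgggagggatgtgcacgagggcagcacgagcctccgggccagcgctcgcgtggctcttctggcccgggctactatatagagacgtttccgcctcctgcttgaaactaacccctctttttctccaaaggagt
*JMY* (chr5:79235881-79236160, plus strand): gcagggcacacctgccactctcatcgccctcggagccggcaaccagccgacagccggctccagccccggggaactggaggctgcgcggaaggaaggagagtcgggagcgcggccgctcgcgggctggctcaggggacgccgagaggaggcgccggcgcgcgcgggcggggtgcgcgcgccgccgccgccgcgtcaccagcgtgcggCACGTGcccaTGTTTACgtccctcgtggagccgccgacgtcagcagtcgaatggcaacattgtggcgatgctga
*SELENOP* (chr5:42811863-42812142, minus strand): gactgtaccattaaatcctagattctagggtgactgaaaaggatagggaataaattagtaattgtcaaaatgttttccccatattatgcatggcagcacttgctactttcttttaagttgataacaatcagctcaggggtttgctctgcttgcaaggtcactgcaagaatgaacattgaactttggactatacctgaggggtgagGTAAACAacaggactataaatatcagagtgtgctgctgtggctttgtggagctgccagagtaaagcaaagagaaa
*CLSPN* (chr1:35769949-35770228, minus strand): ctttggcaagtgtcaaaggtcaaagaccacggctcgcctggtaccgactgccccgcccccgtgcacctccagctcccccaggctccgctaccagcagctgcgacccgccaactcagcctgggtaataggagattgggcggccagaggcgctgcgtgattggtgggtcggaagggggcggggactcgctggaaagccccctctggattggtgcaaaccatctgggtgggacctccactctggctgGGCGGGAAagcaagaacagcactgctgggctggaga
*UHRF1* (chr19:4909251-4909530, plus strand): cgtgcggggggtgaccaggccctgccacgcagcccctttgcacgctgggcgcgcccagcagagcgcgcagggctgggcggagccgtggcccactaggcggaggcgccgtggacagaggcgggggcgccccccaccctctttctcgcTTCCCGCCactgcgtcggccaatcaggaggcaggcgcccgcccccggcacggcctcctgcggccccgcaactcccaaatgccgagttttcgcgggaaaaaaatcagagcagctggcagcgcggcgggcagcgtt
The FOXO match began 124 bases before the start in *TXNIP*, 45 before it in *SELENOP*, 34 before it in *JMY*, on the opposite strand and downstream of the E-box that began 44 before it, and 14 after it in *MTURN*. The E2F match began 6 bases before the start in *CLSPN* and 104 before it, on the opposite strand, in *UHRF1*.

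Beyond single genes, 31 lists of genes of shared function were counted, and their counts were read against 22.6% rises and 21.1% falls over all genes and a median log2 change of 0.01. The lists with the highest medians were the snoRNA host genes, nuclear receptors and interferon-stimulated genes, and those with the lowest were the chaperones and the genes of the ER translocon and N-glycan transfer. Without the filter for dim signals or with the floor at the 40th percentile the snoRNA host genes ranked below the nuclear receptors, whose median of 0.52 was in turn 0.22 with probe sets averaged. No list was tested as a set.

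**Figure D3:**
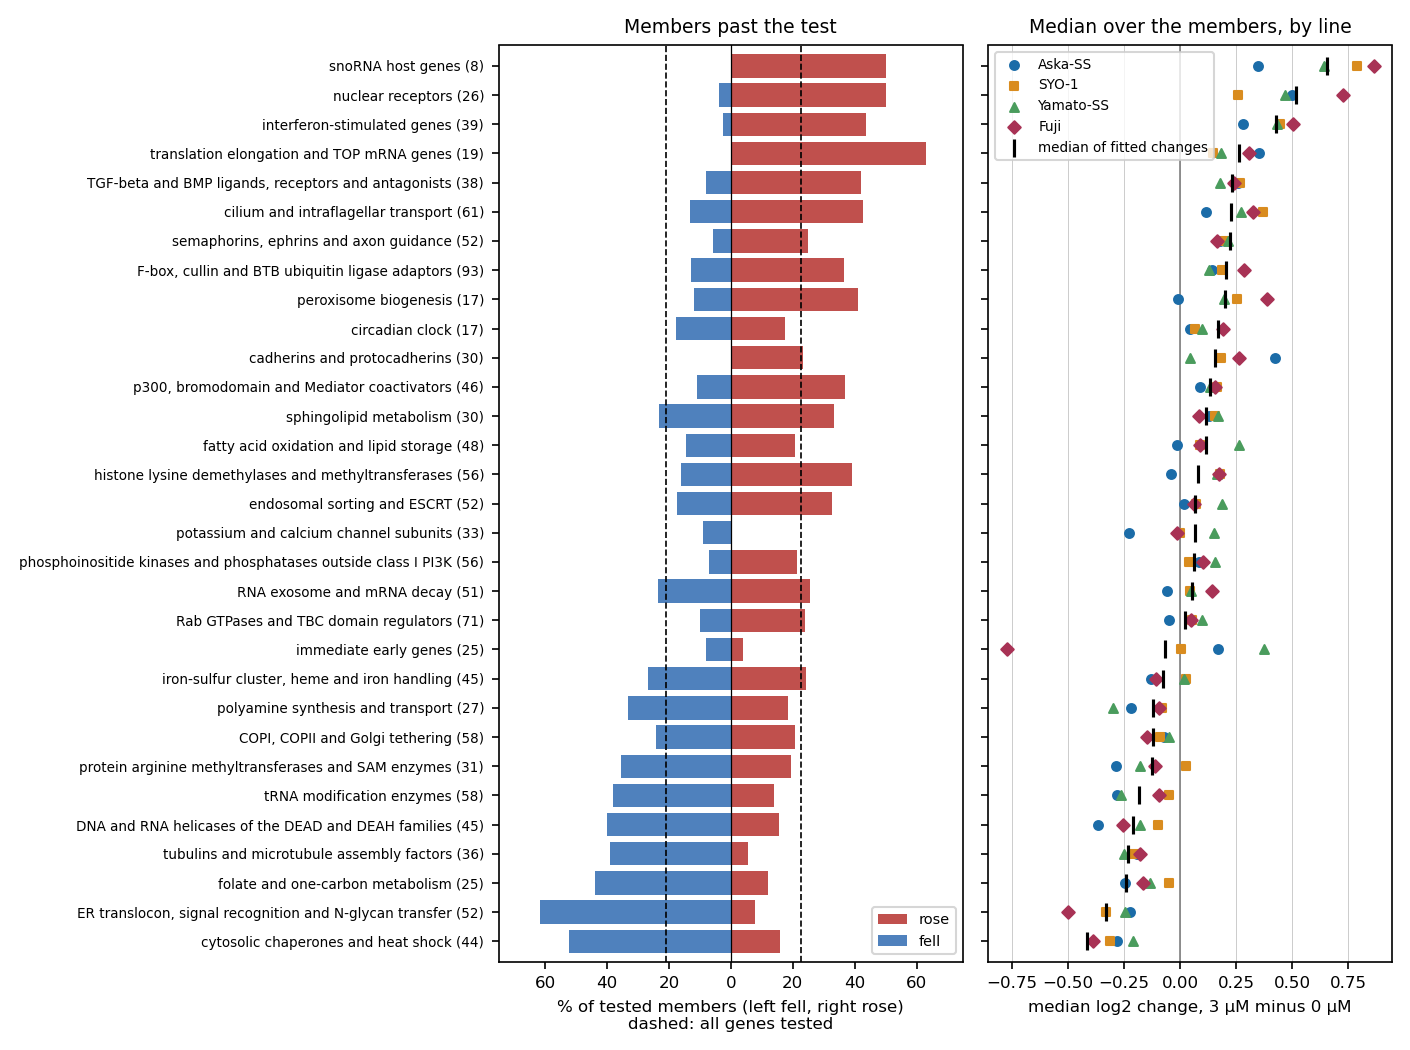
Left, share of the tested members of each of 31 function lists that rose (right of 0) or fell (left of 0) at 3 µM ZSTK474, in percent, with the number tested in brackets and dashed lines at the shares over all genes (22.6% and 21.1%). Right, median log2 change of the members in each cell line (points) and of the fitted changes (black bar), from 0.66 for the snoRNA host genes to -0.41 for the chaperones, with the immediate early genes spread from -0.77 in Fuji to 0.38 in Yamato-SS.

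Of 39 interferon-stimulated genes, antiviral genes that interferons induce, 17 rose and 1 fell, with a median log2 change of 0.43 (Fuji 0.50, SYO-1 0.44, Yamato-SS 0.43 and Aska-SS 0.28). *SP110*, a nuclear body protein, had signals of 449, 655, 250.1 and 470.2 at 0 µM and 904, 1554, 806 and 1462 at 3 µM, with a log2 change of 1.40 (standard error 0.13). *DDX60*, a helicase of RNA sensing, rose by 1.11 (standard error 0.15), *IFIT2*, which binds viral RNA, by 1.09 (standard error 0.16), and *IRF9*, a transcription factor of the interferon response, by 1.09 (standard error 0.16). The list's fall was that of *IRF3*, which turns on interferon genes (-0.48, adjusted p = 0.0218), and it passed neither without Aska-SS nor without Fuji. Without Fuji 12 members rose and 0 fell, and without the pairing 0 passed. In the fit with all lines 21 of the 39 did not pass. Among them, named after their values were seen, were *ISG15* (-0.25), *MX1* (0.02), *IFIT1* (0.28) and *OAS3* (-0.47). Of the 39 fitted changes 32 were above 0 and 7 below.

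The 3 *IFITM* genes of that list, chosen after their values were seen, encode membrane proteins that block virus entry and differed between lines. The signals of *IFITM1* were 486, 249, 392 and 83.8 at 0 µM and 2085, 440.1, 8036 and 346 at 3 µM, and those of *IFITM3* were 3545, 1063, 768 and 79.9 at 0 µM and 6654, 971, 4531 and 180.1 at 3 µM. The groups overlapped for both. *IFITM1* was higher in each line, by 4.36 in Yamato-SS and 0.82 in SYO-1, while *IFITM3* changed by 2.56 in Yamato-SS and -0.13 in SYO-1. The 3 copies are alike in sequence, and their probe sets may share signal.

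Of 26 genes of nuclear receptors and their coactivators, 13 rose and 1 fell, with a median of 0.52 (0.26 to 0.73 in the 4 lines). *RORA*, an orphan receptor of the clock and of lipid metabolism, had signals of 146, 5329, 500.2 and 482 at 0 µM and 522, 9019.8, 1139 and 1598 at 3 µM and rose in each line (log2 change 1.38, standard error 0.15) although its level differed widely between lines and the groups overlapped. *NR2F1*, also called COUP-TFI, rose by 0.52 (standard error 0.061), *NR3C1*, the glucocorticoid receptor, by 0.87 (standard error 0.10) and *NCOA2*, a coactivator of steroid receptors, by 0.68 (standard error 0.088). *NR2F6*, an orphan receptor of the COUP-TF group, was the one that fell (-0.57, standard error 0.088). Of 38 genes of TGF-beta and BMP signals, 16 rose and 3 fell, with a median of 0.23. *SMAD9*, a transducer of BMP signals, had 2256, 2680.1, 2196 and 1432 at 0 µM and 5225, 5588, 4638 and 5903 at 3 µM without overlap (log2 change 1.35, standard error 0.14). *ACVR2B*, an activin receptor, had 304, 257, 292 and 152 at 0 µM and 741, 548, 649.8 and 685 at 3 µM, also without overlap. *TGFB2*, a ligand, rose by 0.97 (standard error 0.13) and *TGFBR3*, betaglycan, which presents it to its receptors, by 1.18 (standard error 0.16). The falls were those of *GDF11* (-0.51, standard error 0.12), *GREM1*, a BMP antagonist (-0.50, standard error 0.17), and *INHBB*, a subunit of activin B (-0.80, standard error 0.30), of which 1 was left without Fuji.

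Of 61 genes of the primary cilium and of intraflagellar transport (IFT), which carries cargo along it, 26 rose and 8 fell, with a median of 0.23. *WDR19*, an IFT-A subunit, had signals of 892, 744, 432 and 958 at 0 µM and 2129, 1915, 1913 and 2394 at 3 µM, with no overlap and a log2 change of 1.52 (standard error 0.14). *BBS1*, of the BBSome, which sorts ciliary membrane proteins, rose by 1.13 (standard error 0.12), *DYNC2LI1*, of the dynein that drives retrograde transport, by 1.16 (standard error 0.15) and *IFT80*, of the IFT-B complex, by 0.78 (standard error 0.092). Among the 8 falls, chosen after their values were seen, were *MKKS*, a chaperone of the BBSome (-0.92), and *B9D1*, of the ciliary gate (-1.01), and without Aska-SS 4 members fell.

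Of 8 host genes of small nucleolar RNAs, most of which make noncoding RNAs that, like ribosomal protein mRNAs, begin with a terminal oligopyrimidine (TOP) tract, 4 rose and none fell, with a median of 0.66. The 4 that did not pass were the protein-coding hosts *TAF1D* (0.35) and *CCAR1* (0.07) and the noncoding *GAS5* (-0.12) and *SNHG17* (-0.01). *GAS5* was higher in SYO-1 (0.73) and lower in the other lines. The median was 0.35 over 9 genes with the floor at the 40th percentile and 0.25 over 11 with no filter on dim probe sets. The signals of *EPB41L4A-AS1* were 12672, 3079, 853 and 1736 at 0 µM and 32450.5, 13542, 4699.9 and 9121 at 3 µM, and those of *ZFAS1* were 12312, 10758, 7745 and 8728 at 0 µM and 21857, 26213, 19711 and 21089 at 3 µM. *ZFAS1* did not overlap between the groups and *EPB41L4A-AS1* did, since its level in Aska-SS was far above that in the other lines. *SNHG32* rose by 1.26 (standard error 0.10) and *SNHG19* by 0.96 (standard error 0.12). Of 19 genes of translation elongation and initiation or with TOP mRNAs of other function, 12 rose and none fell, with a median of 0.26. Those of other function include *NPM1* (0.12), *IPO7* (0.17) and *VIM* (0.03), which did not pass. *EEF1A1* (-0.03), *TPT1* (-0.03), *NACA* (0.05) and *EEF1A2* (0.13) did not pass either. *EIF4B*, an initiation factor that helps the helicase eIF4A, had signals of 7216, 8754, 5660.2 and 7008 at 0 µM and 15040.4, 16227, 13654 and 13396 at 3 µM, with no overlap. *HNRNPA1*, an RNA-binding protein, rose by 1.04 (standard error 0.084), *EIF3H*, a subunit of eIF3, by 0.50 (standard error 0.06) and *NAP1L1*, a histone chaperone, by 0.44 (standard error 0.056).

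Genes of ubiquitin ligase adaptors and of chromatin regulators leaned upward. Of 93 F-box, cullin and BTB adaptors, which bring substrates to cullin-RING ligases, 34 rose and 12 fell, with a median of 0.20. *CUL4B*, a scaffold, had signals of 4775, 1613, 1546 and 2635 at 0 µM and 9445, 2870.3, 3458 and 7898 at 3 µM, with overlapping groups (log2 change 1.14, standard error 0.10), *FBXL4*, a mitochondrial F-box protein, rose by 0.99 (standard error 0.11) and *KLHL7* by 0.82 (standard error 0.093), next to *KLHL24* above. Of 56 histone lysine demethylases and methyltransferases, 22 rose and 9 fell, although the median, 0.08, was near that of all genes and below 0 in Aska-SS (-0.04). *KDM7A*, a demethylase of repressive marks, had 365, 770.5, 708 and 792 at 0 µM and 964, 2180.5, 2169.8 and 1875 at 3 µM, with line values of 1.24 to 1.61 and no overlap. *KDM5B*, a demethylase of H3K4, rose by 1.09 (standard error 0.11), *KMT5B*, an H4K20 methyltransferase, by 0.85 (standard error 0.089) and *JMJD1C* by 0.78 (standard error 0.083). Of 46 genes of p300/CBP, bromodomain and Mediator coactivators, 17 rose and 5 fell. *CREBBP*, the acetyltransferase CBP, had 2424, 2882, 1968 and 2266 at 0 µM and 5183, 4996, 3307 and 4378 at 3 µM, with no overlap, *CDK19*, a kinase of Mediator, rose by 1.29 (standard error 0.11), *MED13L* by 1.17 (standard error 0.12) and *KAT6B*, another acetyltransferase, by 0.83 (standard error 0.093). The 5 that fell were the Mediator subunits *MED27* (-1.23), *MED31* (-0.83), *MED8* (-0.45), *MED22* (-0.44) and *MED17* (-0.32), and without Aska-SS 2 fell.

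Most genes that take proteins into the ER and glycosylate them fell. Of 52 genes of the translocon, the signal recognition particle and N-glycan assembly and transfer, 32 fell and 4 rose, with a median of -0.33 (-0.50 in Fuji to -0.23 in Aska-SS). *SEC61B*, a subunit of the translocation channel, had signals of 13512, 14174, 26394 and 20056 at 0 µM and 9424, 8264, 14644 and 10521 at 3 µM, and *SEC61A1*, its pore, had 3851, 4017, 3152 and 3882 at 0 µM and 2633, 2404, 1906 and 2100.2 at 3 µM. The first overlapped between the groups and the second did not. *SRPRB*, of the signal recognition particle receptor, fell by 0.77 (standard error 0.076) and *ALG8*, a glucosyltransferase of the N-glycan precursor, by 1.18 (standard error 0.13). The 4 that rose did so by little, *SEC62* by 0.33, *SEC11A* by 0.23, *OSTC* by 0.18 and *TUSC3* by 0.18, and none of them passed without Aska-SS.

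Of 44 cytosolic chaperones and heat shock genes, 23 fell and 7 rose, with a median of -0.41. *STIP1*, which links HSP70 to HSP90, had signals of 4322, 4940.4, 8312 and 4339.6 at 0 µM and 1339.7, 1423, 3615 and 797 at 3 µM, with no overlap and a log2 change of -1.78 (standard error 0.15). *HSPH1*, a nucleotide exchange factor of HSP70, fell by 0.91 (standard error 0.065), *HSPA14* by 1.19 (standard error 0.093) and *FKBP4*, a cochaperone of HSP90, by 0.90 (standard error 0.095). Among the 7 rises was *HSF1*, the heat shock transcription factor (0.62, standard error 0.18), chosen because of its value.

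Genes of RNA modification and RNA helicases also leaned downward. Of 58 tRNA modification enzymes 22 fell and 8 rose, with a median of -0.18, and 4 rose without SYO-1 or without Fuji. *NSUN2*, a tRNA cytosine methyltransferase, had signals of 2109, 1931, 2254 and 1925 at 0 µM and 1153, 1134, 803 and 741 at 3 µM, with no overlap. *TRMT6* fell by 0.94 (standard error 0.11), *TRMT10C*, of mitochondrial tRNA processing, by 0.76 (standard error 0.10) and *PUS1*, a pseudouridine synthase, by 1.01 (standard error 0.14). Of 45 DEAD and DEAH box helicases 18 fell and 7 rose, with a median of -0.21. The 4 with the smallest adjusted p moved both ways. *DDX3X*, a translation helicase, fell by 0.45 (standard error 0.06), and *DHX40*, *DDX17* and *DDX50* rose, by 1.17 (standard error 0.098), 0.65 (standard error 0.065) and 0.59 (standard error 0.069). Among 51 genes of mRNA decay 13 rose and 12 fell. *EXOSC3*, an exosome subunit, fell by 0.99 (standard error 0.097) and *LSM1*, of the ring that promotes decapping, by 0.79 (standard error 0.079), and *BTG1*, which recruits the deadenylase, rose by 1.52 (standard error 0.17) and *ZFP36L1*, which marks AU-rich mRNAs for decay, by 0.86 (standard error 0.093). Of 31 protein arginine methyltransferases and related enzymes 11 fell and 6 rose, and without Aska-SS 6 fell and without Yamato-SS 7.

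Polyamine genes moved both ways. Of 27 genes 9 fell and 5 rose, with a median of -0.12. *ODC1*, the first enzyme of polyamine synthesis, had signals of 21251, 10396, 21654 and 11898 at 0 µM and 11824, 7855, 15878 and 6126 at 3 µM, with overlapping groups, and *AMD1*, which supplies the aminopropyl groups, fell by 0.80 (standard error 0.11). *EIF5A*, the factor that carries hypusine made from spermidine, had 13475, 13269, 16256 and 14949 at 0 µM and 5900, 8426, 8832 and 3763 at 3 µM, with no overlap. *SAT1*, the acetyltransferase that starts polyamine breakdown, had 1892, 1676, 1677 and 2367 at 0 µM and 5236, 2552, 3973 and 14359 at 3 µM, with no overlap, and *SAT2* rose by 1.03 (standard error 0.11). The other rises were *SMOX*, spermine oxidase (0.93, standard error 0.27), *AZIN2*, an antizyme inhibitor (0.48), and *DHPS*, of hypusine synthesis (0.28). Without SYO-1 or Yamato-SS 2 of the list rose and without Aska-SS 3.

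Of 25 folate and one-carbon genes 11 fell and 3 rose, with a median of -0.24. *SLC19A1*, the reduced folate carrier, had signals of 628, 1343, 1079 and 537 at 0 µM and 290, 612, 318 and 255 at 3 µM, with overlapping groups, *SLC25A32*, the mitochondrial folate carrier, fell by 0.98 (standard error 0.095), *TYMS*, thymidylate synthase, by 0.81 (standard error 0.12) and *MTRR*, methionine synthase reductase, by 0.60 (standard error 0.091). The rises were those of *AHCYL2* (0.66), *MAT2B* (0.30) and *AHCY* (0.24), and without Yamato-SS 6 rose. Of 36 tubulins and assembly factors 14 fell and 2 rose, with a median of -0.23. Besides *TUBG1*, *TUBA4A* had signals of 1564, 3274, 570.5 and 2026 at 0 µM and 828, 1204, 256 and 472 at 3 µM, with overlapping groups, *TUBA1B* fell by 0.62 (standard error 0.082) and *TUBB6* by 0.99 (standard error 0.17), and the rises were the ligases of tubulin tails *TTLL1* (0.59) and *TTLL3* (0.75), neither of which passed without Fuji. Of 45 genes of iron handling and iron-sulfur clusters 12 fell and 11 rose. *BOLA3*, of iron-sulfur cluster transfer, fell by 1.33 (standard error 0.12), *SLC39A14*, a metal importer, by 1.01 (standard error 0.094) and *GLRX5*, also of cluster transfer, by 0.75 (standard error 0.093). *TFRC*, the transferrin receptor, which takes up iron, had 13829, 19476, 27317 and 19885 at 0 µM and 7719, 5818, 19511 and 8438 at 3 µM, with overlapping groups, and *FTL* and *NCOA4*, of iron storage and its release, rose by 0.55 and 0.64, *TFRC* and *FTL* being named after their values were seen. Without SYO-1 or without Fuji 7 of the list rose.

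Of 17 peroxisome genes 7 rose (41.2%) and 2 fell (11.8%), with a median of 0.20, or 0.33 without Aska-SS. *ABCD4*, an ABC transporter, rose by 0.88 (standard error 0.13), *PEX11A*, which divides peroxisomes, by 1.47 (standard error 0.26), *PEX16*, of peroxisomal membrane assembly, by 0.52 (standard error 0.11) and *PEX2*, a ubiquitin ligase subunit of protein import, by 0.58 (standard error 0.12). The falls were those of *PEX26* (-0.44, standard error 0.11) and *PXMP4* (-0.28, standard error 0.10), and 1 fell without Aska-SS, without SYO-1 or without Fuji.

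The counts of the other lists follow, to be read against the 22.6% and 21.1% of all genes. Of 30 sphingolipid genes 10 rose and 7 fell, 4 of these falls being left without Fuji. The 4 with the smallest adjusted p were rises, *KDSR* (0.91), *GALC* (1.05), *CERT1* (0.73) and *HEXA* (0.84). Of 52 ESCRT and endosome genes 17 rose and 9 fell, of 58 COPI, COPII and tethering genes 12 rose and 14 fell, and of 71 Rab and TBC genes 17 rose and 7 fell. Of 56 phosphoinositide kinases and phosphatases outside class I PI3K 12 rose and 4 fell, led by *MTMR11* (1.29, standard error 0.16) and *PIK3C3*, the class III PI3K (0.74, standard error 0.11), and with probe sets averaged in place of the brightest 7 rose and 8 fell, while 2 fell without Aska-SS and 1 without Fuji. Of 52 semaphorin, ephrin and guidance genes 13 rose and 3 fell, of 30 cadherins 7 rose and none fell, of 48 fatty acid oxidation genes 10 rose and 7 fell, of 17 clock genes 3 rose, or 5 without Yamato-SS, and 3 fell, and of 33 potassium and calcium channels 3 fell, or 1 without Fuji, and none rose. The 25 immediate early genes, which respond to growth factor signals within minutes, depended on Fuji, since 1 rose and 2 fell with it and 6 rose and 0 fell without it. Their median was -0.77 in Fuji and 0.17, 0.00 and 0.38 in Aska-SS, SYO-1 and Yamato-SS, and without Yamato-SS 6 fell.

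Gene families were also read from the letters before the first digit of a symbol, with the first number kept for SLC genes, which gave 195 families of 8 or more genes. The 12 with the largest share of falls were MCM, RRP, TIMM, NDUFAF, HSPA, CHCHD, ALG, NDUFA, PSMD, MRPL, NDUFB and CCT, that is the replicative helicase, ribosomal RNA processing, import into mitochondria, assembly and subunits of respiratory complex I, HSP70 chaperones, mitochondrial intermembrane proteins, N-glycan assembly, the proteasome cap, the mitochondrial ribosome and the TRiC chaperonin. These families were picked by their shares, so the counts are a description. Over all genes 21.1% fell and 22.6% rose. Of 48 MRPL genes 32 fell and 2 rose, or 4 without Yamato-SS, and of 14 TIMM genes 12 fell and 1 rose, *TIMM9* (0.78, standard error 0.10). Of 8 RRP genes 7 fell, led by *RRP36* (-1.36, standard error 0.10), and of 8 complex I assembly factors 6 fell, led by *NDUFAF5* (-1.37, standard error 0.15). The *MCM3AP* gene, which shares its letters with the MCM helicase but exports mRNA, was at -0.12 (adjusted p = 0.335), whereas 8 of the 10 MCM genes fell.

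The 12 families with the largest share of rises were SMAD, BRD, BBS, TCF, ATXN, KLF, ATF, KDM, CSNK, CUL, NR and PEX. The last was tied in share with FBXL and placed by its median. These 12 were also picked by their shares, against 22.6% rises and 21.1% falls over all genes. Of 8 SMAD genes 7 rose and none fell, with *SMAD4*, the common partner, at the low end (0.22) and *SMAD9* at the high end. Of 8 BRD genes 6 rose and none fell, and 5 of these rises were readers of acetylated histones, the other being *BRD3OS*, a transcript of the opposite strand (0.48), and of 17 KDM genes 9 rose and none fell. Of 14 KLF genes, zinc finger factors that bind GC boxes, 8 rose and 1 fell, with *KLF9* at 0.95 (standard error 0.13), *KLF11* at 0.87, *KLF3* at 0.84 and *KLF16* as the fall (-0.52), which did not pass without Aska-SS, without SYO-1 or without Fuji, and 5 rose without Aska-SS. Of 8 BBS genes 6 rose and 1 fell, *BBS5* (-0.74, standard error 0.21), which did not pass without Aska-SS or without Yamato-SS. Of 9 ATF genes 5 rose and 4 fell, so that family moved both ways, its falls coming to 2 without SYO-1 and 1 without Fuji and its rises to 3 without Aska-SS or without Fuji. The CUL median of 0.27 was -0.01 with probe sets averaged, where 2 rose and 2 fell, and of 8 CSNK genes 4 rose, or 2 without SYO-1. With probe sets averaged the medians of NR, TCF and CSNK, 0.50, 0.37 and 0.24, were 0.04, 0.10 and 0.01.

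**Figure D4:**
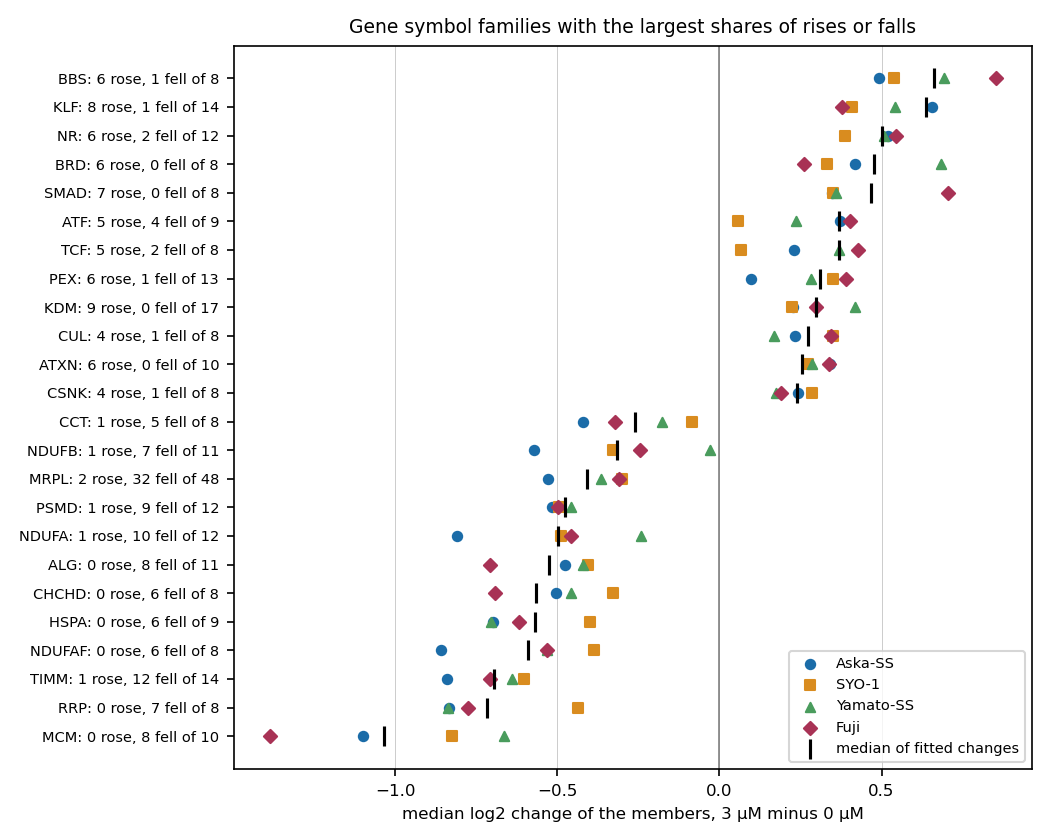
Median log2 change of the members of the 12 families of gene symbols with the largest share of rises and the 12 with the largest share of falls, in each cell line (points) and over the fitted changes (black bar), with counts beside the names. The MCM family lies lowest, with a median of -1.03 and -1.39 in Fuji, and BBS highest, with 0.66.

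Histone genes moved both ways, and all 4 measured YPEL genes rose. These groups were chosen after their values were seen, and their counts are to be read against 22.6% rises and 21.1% falls over all genes. Of 5 cluster H2A genes 3 rose and 1 fell and of 8 cluster H2B genes 6 rose and none fell, whereas of 7 cluster H3 and H4 genes none passed and of 6 H2A variant genes 4 fell and none rose. *H2BC5* had signals of 1131, 542, 945 and 406 at 0 µM and 1804, 1788, 3270 and 1877 at 3 µM, and *H2AX*, the variant phosphorylated at DNA breaks, had 5045, 6719.6, 4404 and 6129 at 0 µM and 1874, 2640, 2666 and 1056 at 3 µM. The groups overlapped for neither gene. The YPEL genes encode small zinc-binding proteins, and besides *YPEL1* (2.25, standard error 0.23), *YPEL2* rose by 1.93 (standard error 0.19) and *YPEL5* by 1.23 (standard error 0.16). Of 362 ZNF genes, most of which encode zinc finger repressors, 124 rose (34.3%) and 20 fell (5.53%), with a median of 0.22 and of 0.18 to 0.31 in the 4 lines. *ZNF862* was highest (1.60, standard error 0.15) and *ZNF367* lowest (-2.12, standard error 0.40).

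Rises and falls differed in gene length, read from RefSeq for 12123 of the 12132 genes. Genes were split by length in 4 groups of equal size. In the shortest, with a median of 5.75 kb, 16.3% rose and 24.9% fell, in the next, at 19.4 kb, 19.6% and 25.1%, in the third, at 45.6 kb, 24.6% and 21.4%, and in the longest, at 135 kb, 29.9% and 12.9%. The median change in the longest group was above 0 in each line, Fuji 0.20, SYO-1 0.15, Yamato-SS 0.12 and Aska-SS 0.11, and that in the shortest was below 0 in each, -0.10, -0.05, -0.01 and -0.09. Of 573 long noncoding RNA genes 137 rose (23.9%) and 29 fell (5.06%), with a median of 0.15. Brightness also moved with the share of calls. With genes split in 4 groups by mean signal, 10.9% rose and 7.48% fell in the dimmest, and 28.9% and 32.4% in the brightest. The part of the 3′ to 5′ ratio of beta actin in the relation to length was not tested.

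**Figure D5:**
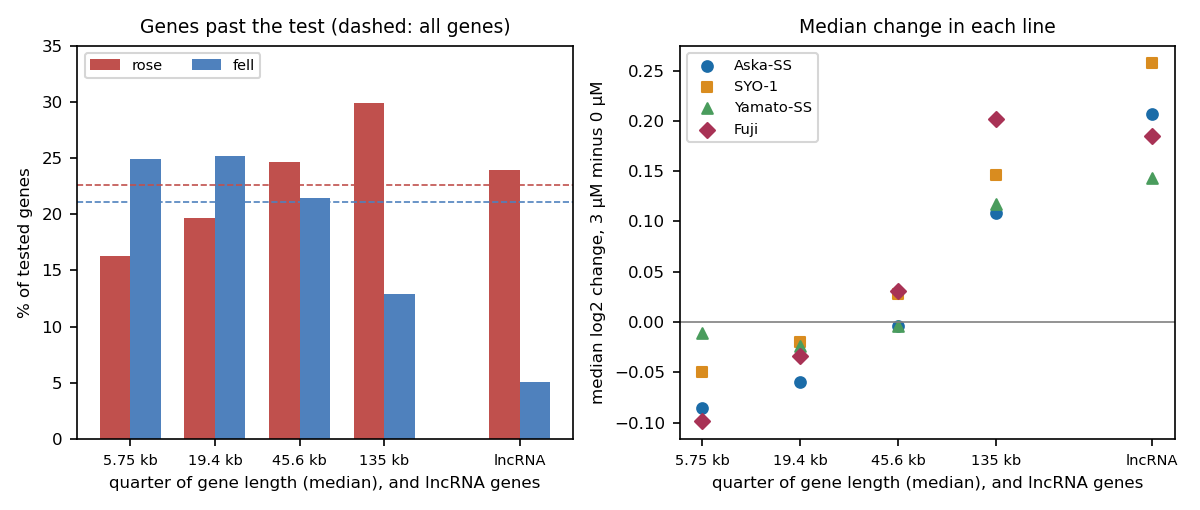
Left, percent of genes that rose or fell at 3 µM ZSTK474 in 4 groups of gene length of equal size (labelled by their median length) and among long noncoding RNA (lncRNA) genes, with dashed lines at the shares over all genes. Right, median log2 change of the same groups in each cell line, which goes from below 0 in the shortest genes to 0.11 to 0.20 in the longest.

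Genes that moved in opposite directions in different lines were few and none passed. A change of 1 log2 unit or more upward in one line and downward in another was found for 145 genes, and 0 of these passed, where the test asks for a shared change. *NUPR1*, a stress-induced chromatin protein, had signals of 214, 69.2, 49.6 and 70.9 at 0 µM and 512, 110.3, 16.5 and 704 at 3 µM, higher in Aska-SS, SYO-1 and Fuji and lower in Yamato-SS (log2 change 0.91, adjusted p = 0.24). *KCNQ1*, a potassium channel, had 204, 203, 226 and 36 at 0 µM and 18.3, 118, 139.5 and 160.5 at 3 µM, lower in 3 lines and higher in Fuji, and *IKZF1*, the lymphoid factor Ikaros, had 209, 62.4, 134 and 100.5 at 0 µM and 12.3, 149, 122 and 96 at 3 µM, with the fall in Aska-SS alone beyond 1 log2 unit and a rise of 1.25 in SYO-1. Each of these changes rests on 1 pair of arrays, and some of the signals were dim. At 3 µM *IKZF1* in Aska-SS, at 12.3, was near the floor of 12.1. *NUPR1* in Yamato-SS (16.5) and *KCNQ1* in Aska-SS (18.3) were dim too.

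Different probe sets of a gene mostly pointed the same way. Of 5682 further probe sets of genes that passed, 4793 (84.3%) had the same sign as the brightest one, 2863 of them passing on their own, and 122 passed in the opposite direction. Among the 25 named rises and the 25 named falls, each probe set above the filter had the direction given here. Of these genes 9 of the rises and 17 of the falls had 1 probe set. The sizes given are those of the brightest probe set, and others could differ. The probe sets ranged from 0.54 to 2.56 in *KIZ* and from 0.67 to 2.45 in *MTURN*. In *LINC00342* 1 of 3 passed, in *H2AC25* and in *GINS4* 1 of 2, in *KIZ* 2 of 3 and in *PCMTD1* 3 of 4.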

How the data were processed

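RNA of 4 SS cell lines at 0, 0.3 and 3 µM ZSTK474 (24 h) was measured on 12 arrays, and the 3 µM arrays were compared with the 0 µM arrays. The authors deposited 1 table of MAS5 signal intensities on a linear scale (MAS5 version: not given in the sources used here), and the trimmed mean came to 500 on each array. The methods name quantile normalization, which the deposited intensities do not show (their distributions differ), so it was applied here over the 12 arrays. The 20th percentile (12.1) was set as the lowest signal before taking log2. Of 54675 probe sets, 62 controls were dropped after normalization, 41097 have 1 gene symbol, 1801 several and 11777 have none in the platform annotation. The 27306 probe sets above the median of mean log2 signal were kept, and the brightest with 1 symbol stood for a gene (12132 genes). *IGF2* and *PIK3CA* were not analysed here. The number of arrays limits the precision.

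Tests used limma 3.58.1 in R 4.3.3, with dose and cell line as terms over all 12 arrays, variances that follow the mean signal, and Benjamini-Hochberg adjustment at 0.05. The pairing comes from the labels, in which a replicate number stands for a cell line. After subtracting each dose's mean, arrays of the same line had r = 0.828 to 0.931 and arrays of different lines -0.43 to -0.0892. Tables and plots were made with Python, pandas and matplotlib. Simulated data with known changes were used to test the fitting step.

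The genes named are the 25 rises and 25 falls with the largest change in the line that moved least, among genes that passed with the same sign in 4 of 4 lines, 10 genes with opposite changes, of which 3 are given, and, for function lists described in detail, the 4 members with the smallest adjusted p plus members against the majority where 5 or fewer. Genes outside this rule are marked. The comparison, the 31 function lists (textbook knowledge) and the rules were chosen with earlier results of these data known. No set test was run. Alternatives were no quantile normalization, log2 of signal plus 16, another floor or filter, averaged probe sets, dropping the block, the 8 arrays alone, no variance trend, array weights and leaving out each line.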

Additional observations from a re-analysis of the deposited data

Results flagged for a closer look

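Over the 4 cell lines, 81 values were examined for a line far from the others, namely the changes of the 50 named genes and the medians of the 31 function lists. By chance about 1 in 20 such groups of 4 is set apart, and here 1 of the 81 was. The median log2 change of the histone lysine demethylases and methyltransferases was -0.0417 in Aska-SS, against 0.166 to 0.179 in the other lines.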

How the results depend on the processing

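Without the replicate block, that is without the pairing by line, 174 genes rose and 209 fell, against 2743 and 2561, and 23 of the 50 named genes no longer passed. Apart from that fit, each of the 50 named genes passed with the same sign in every alternative in which it was tested, and none reversed in any. The count of rises was 2116 to 3157 and that of falls 1987 to 2685 under the other alternatives that kept the 4 lines. Leaving out each replicate in turn gave 2231 to 2524 rises and 2014 to 2367 falls. The median change of a function list moved by less than its spread between lines in 389 of 434 refits. The sign of the median turned in 10 of the 434, in 6 lists, namely the Rab and TBC genes (0.02, between -0.03 and 0.06), circadian clock genes (0.17, down to -0.04), histone lysine demethylases and methyltransferases (0.08, down to -0.02), immediate early genes (-0.07, up to 0.04), phosphoinositide genes (0.06, down to -0.02) and channels (0.07, down to -0.15). Averaging probe sets moved the median of the guidance genes from 0.22 to 0.09 and of the F-box, cullin and BTB adaptors from 0.20 to 0.10, and array weights left 11 and not 17 rises among interferon-stimulated genes. Of the 24 families of symbols, CUL turned in 1 refit. Without quantile normalization the median of all genes was 0.09 and not 0.01. Signals at the floor have no order among themselves, so the changes of *N4BP2L1*, *CPAMD8*, *SELENOP*, *CLSPN*, *SLCO4A1* and *CCL2* in the lines at the floor are limits, and dim probe sets below the filter were not described.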
